A study of Mus musculus with 2 samples.

Results

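The 28 genes described here encode enzymes of cholesterol and fatty acid synthesis and the proteins that switch them on or off. They were taken by symbol from the 33083 genes listed for each of 2 single-cell RNA libraries of mouse colon, and all 28 were found. One library came from a wild-type (WT) mouse colon and the other from a transgenic Alzheimer's disease (AD) model, named APP/PS1-21 in the design text. As background, APP/PS1-21 mice carry mutant human amyloid precursor protein and presenilin 1 transgenes driven by the Thy1 promoter, which is active mainly in neurons. Strain, age, sex and the number of animals behind each library were not given in the sources used here, and the transgenes were not looked for, so each genotype rests on its label. With 1 library per genotype there was no replicate and no test between genotypes. Every difference is given with an interval that covers counting error only.

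As background, cells make cholesterol from acetyl units in a long chain of reactions: condensation to the mevalonate backbone, joining of isoprenoid units into squalene, closure to lanosterol, and conversion of lanosterol to cholesterol. The transcription factors SREBP-2 (Srebf2) and SREBP-1 (Srebf1) are held in the endoplasmic reticulum when sterols are plentiful, by Insig proteins that retain the escort protein Scap, and they activate the genes of both pathways when sterols fall. Fatty acid synthesis starts from the same acetyl units. The colon lining renews continually from crypts and needs new membrane, while goblet and plasma cells also need membrane for secretion.

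After quality filtering, 1546 WT and 4687 AD cells remained, with 12354671 and 31937713 unique molecular identifiers (UMIs, 1 per captured transcript) and medians of 3714.5 and 3720 UMIs per cell. A limit of 25% mitochondrial UMIs removed most of the barcodes that were lost: 60.4% of WT and 29.2% of AD barcodes lay above it. The libraries shared 2 kept barcodes. Clusters were named only from marker genes, as X-like. The epithelial-like cells numbered 562 in WT and 1542 in AD. They comprised goblet-like cells, colonocyte-like cells in clusters 6 and 7, enteroendocrine-like cells, and clusters 4 and 9, which met no subclass name. Cluster 6 was led by Slc9a3, Cyp2c55, Krt20 and Car4, genes of colonocytes at the surface, cluster 7 by Aqp4 and Gsdmc-family genes, cluster 4 by Fut9, Htr4 and Otc, and cluster 9 by Itga9 and histone genes. Cluster 4 held 55 WT and 412 AD cells and cluster 9 held 154 and 91. Defining markers were high in the classes named for them (Muc2 17598 and 17649 CPM in goblet-like cells of WT and AD, Chgb 18647 and 9725 CPM in enteroendocrine-like cells), but Ms4a1, a B cell marker, and Neurod1, an enteroendocrine one, had 0 UMIs in every kept cell of both libraries. Levels are each gene's share of the UMIs of a class, scaled as CPM (counts per 1000000 UMIs). They are compared between cells for 1 gene and never between genes.

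Sterol-sensing promoters often hold a sterol regulatory element, bound by SREBPs, beside a CCAAT box, bound by the partner factor NF-Y. Promoter windows of 300 bases, from 250 before to 50 after the start, were taken from RefSeq (build GRCm38.p6), in which 22 of the 28 genes had an entry; Fdps, Fdft1, Sqle, Stard4, Scd1 and Scd2 had none. The 4 windows below stand for the first step after acetyl condensation (Hmgcs1), the isoprenoid units (Idi1), the trimming of lanosterol (Msmo1) and fatty acid synthesis (Fasn), genes that were all higher in epithelium in the results that follow. Capitals mark the element TCACNCCAC and the box CCAAT, on either strand, so that ATTGG is the box read on the other strand. The windows lie at chr13:119690101-119690400 on the + strand for Hmgcs1, chr13:8885356-8885655 on the + strand for Idi1, chr8:64733529-64733828 on the - strand for Msmo1 and chr11:120824498-120824797 on the - strand for Fasn.
Hmgcs1: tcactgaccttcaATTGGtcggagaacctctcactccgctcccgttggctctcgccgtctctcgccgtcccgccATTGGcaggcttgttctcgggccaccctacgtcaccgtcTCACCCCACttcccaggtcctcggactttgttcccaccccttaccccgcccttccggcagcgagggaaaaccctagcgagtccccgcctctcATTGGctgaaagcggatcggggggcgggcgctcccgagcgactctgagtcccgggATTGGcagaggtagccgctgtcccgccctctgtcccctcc
Idi1: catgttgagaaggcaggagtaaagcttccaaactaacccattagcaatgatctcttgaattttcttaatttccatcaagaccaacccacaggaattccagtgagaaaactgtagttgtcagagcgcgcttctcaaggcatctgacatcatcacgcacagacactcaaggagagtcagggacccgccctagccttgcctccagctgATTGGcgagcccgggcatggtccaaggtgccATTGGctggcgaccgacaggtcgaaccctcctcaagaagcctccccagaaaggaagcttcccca
Msmo1: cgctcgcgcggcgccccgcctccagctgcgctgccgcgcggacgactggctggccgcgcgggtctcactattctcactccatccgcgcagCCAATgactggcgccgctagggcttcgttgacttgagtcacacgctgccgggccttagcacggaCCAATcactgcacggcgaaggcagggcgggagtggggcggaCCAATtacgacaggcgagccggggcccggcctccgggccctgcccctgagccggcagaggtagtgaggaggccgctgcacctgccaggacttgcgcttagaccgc
Fasn: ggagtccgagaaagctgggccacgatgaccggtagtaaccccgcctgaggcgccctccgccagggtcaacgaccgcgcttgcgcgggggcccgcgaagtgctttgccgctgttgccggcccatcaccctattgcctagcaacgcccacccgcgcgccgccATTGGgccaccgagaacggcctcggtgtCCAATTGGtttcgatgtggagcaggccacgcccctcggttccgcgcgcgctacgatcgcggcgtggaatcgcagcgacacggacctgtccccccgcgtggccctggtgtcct
Hmgcs1 holds 1 element, starting at -137, and 4 boxes. Idi1 holds 2 boxes, Msmo1 3, and Fasn 3, of which 2 overlap. Over the 30 windows of the 22 genes, 20 (66.7%) held a CCAAT box, against 37.4% of all 32851 windows. Counting a gene once if any of its windows matched, 19 of 22 genes held it, against 41.1% of 27025 genes; Acat2, Scap and Acaca did not. The element TCACNCCAC was found in 1 of the 22 genes, Hmgcs1, against 1.44% of genes, and the looser TCACNCNAC, which includes it, in 2, Hmgcs1 and Nsdhl, against 3.15%. The E-box CANNTG, also searched on both strands, was in 18 of 22 genes against 75.0% of genes. A match is a description of these letters and was not tied to binding.

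Most of the synthesis enzymes were at least 2-fold higher in epithelial-like cells than in the stromal-like and immune-like cells around them. None of the regulators reached that limit in both libraries. A gene was counted when its CPM over all epithelial-like cells, taken with 0.5 added to each UMI count, was at least 2-fold that of both other groups, in both libraries. Of the 27 genes with at least 50 UMIs, 14 met this, where 9.61% of all 14970 genes did; 1 gene, Scd1, was at least 2-fold lower, where 10% of genes were. The remaining 12 met neither. The count was 9 when each cell was weighted equally, 7 when each was thinned to 1000 UMIs, 8 at a mitochondrial limit of 50% and 5 with no such limit. Epithelial-like cells had medians of 9883 and 9584.5 UMIs against 3330 and 2838 in stromal-like and 2961.5 and 2980 in immune-like cells. Plasma-like cells supplied 453237 of the 2162685 immune-like UMIs in WT and 7104992 of the 9928058 in AD. The immune-like level was thus taken over a different mixture in each library. The part of this mixture in the ratios of epithelium to immune-like cells was not tested.

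**Figure D1:**
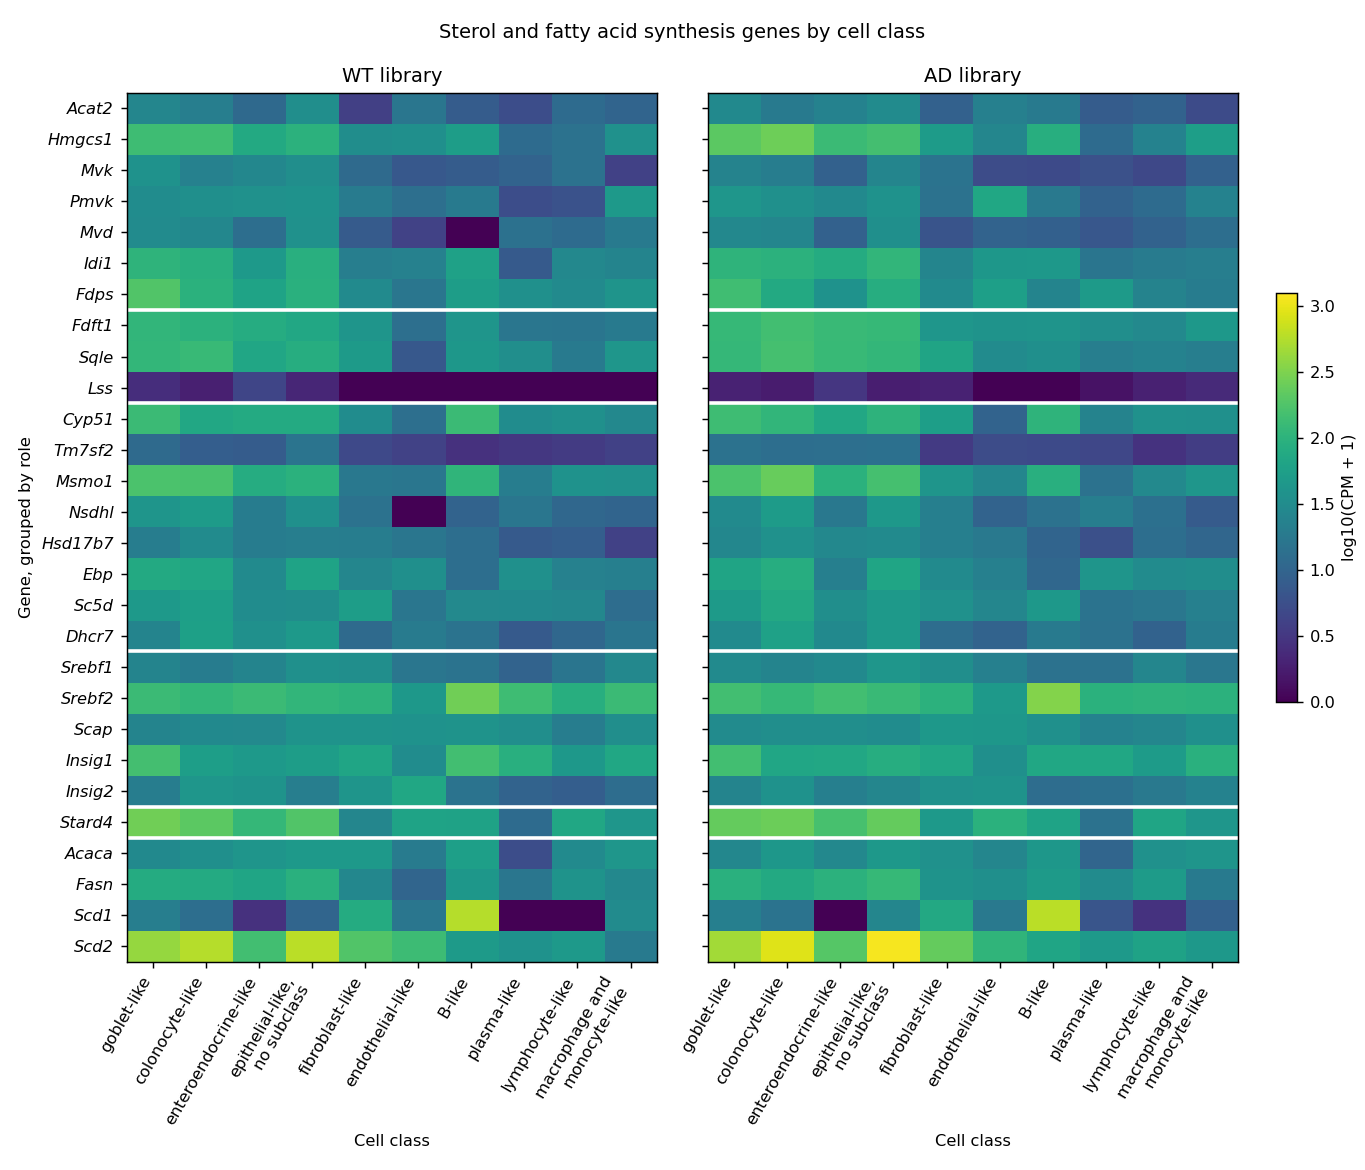
Level of each of the 28 genes (rows, grouped by role, white lines between groups) in 10 cell classes (columns) of the WT library (left) and the AD library (right), as log10(CPM + 1). Most synthesis genes are brightest in the epithelial-like columns on the left of each panel, Scd1 and Srebf2 are brightest in B-like cells, and Lss is near 0 in every class.

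The condensation and mevalonate steps supplied 5 of the 14 genes: Acat2, Hmgcs1, Mvd, Idi1 and Fdps. Hmgcs1, the cytosolic synthase that makes HMG-CoA, stood at 121 CPM in WT and 209 CPM in AD epithelium, 37.1 and 48.3 CPM in stroma, and 26.8 and 23.3 CPM in immune-like cells. Its epithelial level was above both other groups in each library. Idi1, which interconverts the isoprenoid units, was at 89.2 and 103 CPM in epithelium and between 18.9 and 30.5 CPM in the other groups. Mvk, the mevalonate kinase, missed the count because its AD epithelial level of 22.1 CPM was 1.68 times the stromal one, and Pmvk, the next kinase, because its WT ratio was 1.66.

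Both measurable genes of squalene formation were in the count. Fdft1, squalene synthase, stood at 90.6 and 130 CPM in WT and AD epithelium, 36.4 and 40.7 CPM in stroma and 22.2 and 33.8 CPM in immune-like cells. Sqle, squalene epoxidase, was 2.44 and 2.23 times the stromal level and 3.37 and 5.93 times the immune level. Lss, which closes the ring to lanosterol, was nearly undetected, with 11 WT and 26 AD UMIs over all kept cells, and was not counted. The cause of that near absence was not tested.

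Of the 8 genes from lanosterol to cholesterol, Msmo1, Nsdhl, Ebp and Dhcr7 were in the count and Cyp51, Tm7sf2, Hsd17b7 and Sc5d were not. Tm7sf2, a sterol C14 reductase, missed it only through the added 0.5: its plain WT ratio to stroma was 2.05 (0.998 to 4.91), and its other ratios ran from 3.92 to 5.56. Msmo1, the sterol C4-methyl oxidase, stood at 137 and 186 CPM in WT and AD epithelium against 22.6 and 38.6 CPM in stroma and 51.8 and 25.3 CPM in immune-like cells. Dhcr7, the last reductase of one branch, was at 44.5 and 44.8 CPM against 11.1 to 14.1 CPM elsewhere. Cyp51, which removes the 14-alpha methyl group, missed the count in WT, where its ratio to immune-like cells was 1.51. It stood at 128 CPM in WT and 103 CPM in AD B-like cells, beside 130 and 136 CPM in goblet-like cells.

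The sterol transfer protein Stard4, which moves cholesterol between membranes, was at 206 and 239 CPM in WT and AD epithelium, 6.30 and 5.18 times the stromal level and 4.09 and 9.18 times the immune level. Plasma-like cells had the lowest levels among the immune classes, 11.0 and 13.7 CPM. Fasn, the fatty acid synthase, was at 81.7 and 92.7 CPM in epithelium and between 28.3 and 37.4 CPM in the other groups, while Acaca, the carboxylase before it, was at 49.6 and 35.1 CPM in stroma and 37.2 and 37.0 CPM in epithelium.

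All 5 regulators were outside the count. Scap was at 30.3 and 31.6 CPM in epithelium, 42.1 and 43.9 CPM in stroma and 29.6 and 25.1 CPM in immune-like cells. Srebf1 was at 25.3 and 30.6 CPM in epithelium and 35.8 and 36.6 CPM in stroma. Srebf2 was highest in B-like cells of both libraries, at 265 and 333 CPM, and between 108 and 145 CPM in the epithelial-like classes. Insig1 was highest in goblet-like cells in both libraries, at 150 and 142 CPM, with WT B-like cells close behind at 144 CPM. Insig2 was highest in endothelial-like cells, at 68.6 and 38.6 CPM, from 99 and 82 cells, and colonocyte-like cells came next at 41.4 and 37.2 CPM.

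The stearoyl-CoA desaturases, which put the first double bond into saturated fatty acyl chains, were highest in different classes. Scd2 was higher over all epithelial-like cells, at 517 and 796 CPM in WT and AD. It stood at 244 and 228 CPM in stroma and 40.7 and 48.8 CPM in immune-like cells. Its WT ratio of epithelium to stroma was 2.12 (1.91 to 2.36). Enteroendocrine-like cells, at 144 and 193 CPM, were below the stromal level. Scd1 was low in epithelium. It stood at 12.3 and 19.1 CPM in epithelium, 78.8 and 72.4 CPM in fibroblast-like cells, and 562 and 599 CPM in B-like cells, from 320 and 606 UMIs. The other immune classes were far below the B-like level: lymphocyte-like cells (T, natural killer and innate lymphoid) had 0 UMIs in WT and 2 in AD, and plasma-like cells 0 and 39. Macrophage and monocyte-like cells had 10 and 6, which is 29.9 CPM in WT, above the epithelial level but from 2 cells, and 8.08 CPM in AD.

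The high share of B-like cells with Scd1 was also seen at equal depth. After each cell was thinned to 1000 UMIs, 77 of 207 WT B-like cells (37.2%, exact 95% interval 30.6 to 44.2) and 166 of 414 AD ones (40.1%, 35.3 to 45) had an Scd1 UMI. The same share was 0 of 222 in WT lymphocyte-like cells, which allows up to 1.35%, and 1 of 401 (0.249%) in AD ones, which serve here as the background that free RNA in droplets can give. Shallower cells left out numbered 22 and 69 B-like and 15 and 52 lymphocyte-like cells. Without thinning, 60.7% of WT and 55.9% of AD B-like cells had an Scd1 UMI at medians of 2448 and 1960 UMIs. The same thinning gave Scd2 a smaller contrast between epithelium and stroma. An Scd2 UMI was in 28.6% (24.6 to 32.8) of WT and 44.6% (42.0 to 47.3) of AD epithelial-like cells, against 17.1% (12.2 to 22.8) and 18.7% (15.8 to 21.8) of fibroblast-like and 4.05% and 4.99% of lymphocyte-like cells. In the thinning shown, WT goblet-like cells, at 18 of 100 (interval 11.0% to 26.9%), did not stand apart from WT fibroblast-like cells. Over repeats of the thinning the WT goblet-like count ran from 18 to 36, so the count shown was the lowest. The WT fibroblast-like count ran from 22 to 43 of 211 cells. These classes are therefore not read as alike in Scd2. The close paralogs Scd3 and Scd4 had at most 26 UMIs in any of the epithelial, stromal and immune groups. Reads that fit more than 1 paralog may have been split or dropped in the authors' counting.

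**Figure D2:**
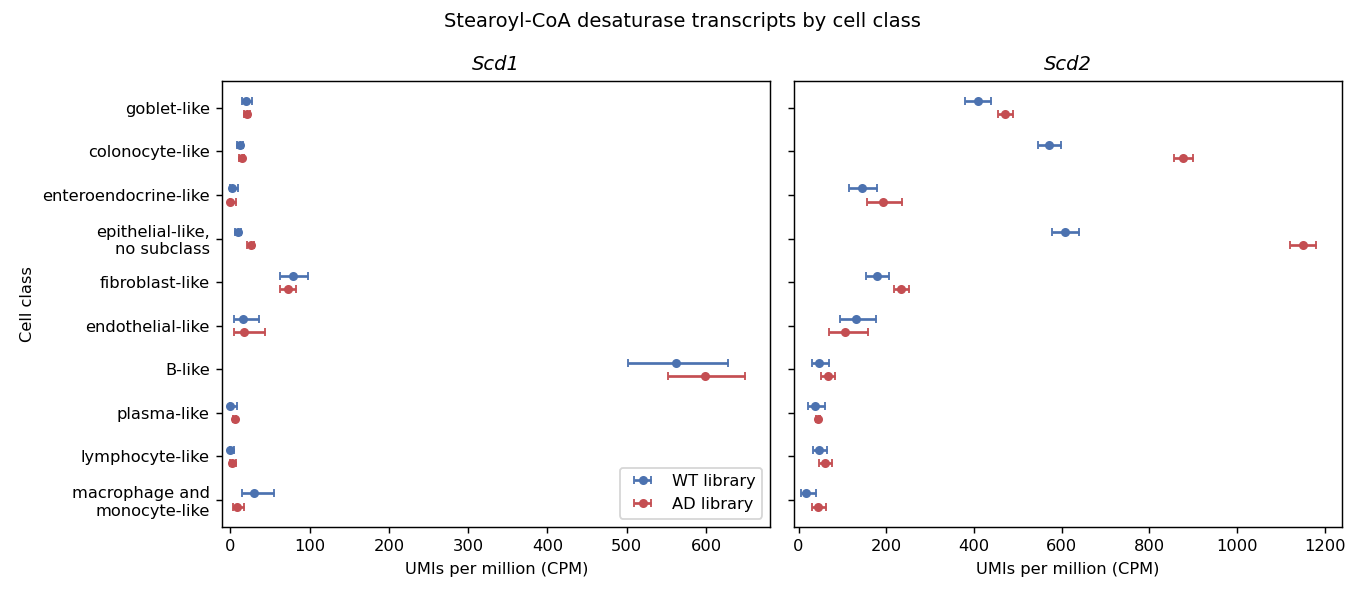
Scd1 (left) and Scd2 (right) in 10 cell classes, in CPM on linear axes; points are the WT library (blue) and the AD library (red), bars the exact 95% Poisson interval of the summed count. Scd1 peaks in B-like cells at 562 and 599 CPM with fibroblast-like cells next, and Scd2 peaks in epithelial-like cells without a subclass.

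B-like cells differed from the other immune-like cells in more of the genes than Scd1. Of 26 genes with at least 50 UMIs, 9 were at least 1.5-fold higher in B-like cells in both libraries (Hmgcs1, Idi1, Sqle, Cyp51, Msmo1, Hsd17b7, Srebf2, Acaca and Scd1), where 17.1% of all genes were, and 1, Ebp, was lower, where 18.6% were. The log2 difference was 6.42 in WT and 6.81 in AD for Scd1, 2.00 in each for Cyp51, 1.74 and 2.33 for Msmo1, and 1.28 and 1.80 for Srebf2. The median over the 26 genes was 0.61 in WT and 0.62 in AD, against -0.17 and 0.30 over all genes. Plasma-like cells made up 52 of the WT and 878 of the AD immune-like cells, so the other immune-like cells were not the same mixture in the 2 libraries. Plasma markers summed to 76598 and 271581 CPM over all immune-like cells of WT and AD, and to 1189 and 6002 CPM in B-like cells. The CPM totals hold these UMIs, and their part in this contrast was not tested. Among fibroblast-like cells, cluster 3, led by Pcolce2 and Pi16, exceeded cluster 5, led by Cxcl13 and Adamdec1, by 1.5-fold in both libraries for 4 of 22 genes, Msmo1, Fasn, Scd1 and Scd2 (background 8.43%), and was lower for Insig1 and Insig2 (background 8%). Scd1 was at 114 and 109 CPM in cluster 3 and 40.0 and 30.3 CPM in cluster 5.

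Within the epithelium the genes did not share one pattern. The colonocyte-like cells of cluster 6 were compared with cluster 4 inside each library. Msmo1 and Insig2 were at least 1.5-fold higher in cluster 6 in both libraries (2 of 27 genes, background 11.3%), and Acat2, Mvk, Srebf1, Fasn and Scd2 were lower (5 of 27, background 34.8%). Msmo1 stood at 216 CPM in WT cluster 6 and 114 CPM in WT cluster 4, and at 272 and 158 CPM in AD. Hmgcs1 was in the same direction in each library, 153 against 106 CPM in WT and 295 against 157 CPM in AD, with log2 differences of 0.53 and 0.91. Fasn went the other way, at 41.3 against 83.0 CPM in WT and 52.9 against 121 CPM in AD. Srebf1, whose product mainly drives fatty acid genes, was at 14.1 against 35.3 CPM in WT and 15.4 against 40.9 CPM in AD. Scd2 was at 303 against 765 CPM in WT and 695 against 1222 CPM in AD. Acaca, the enzyme before Fasn, was at 36.9 against 45.6 CPM in WT and 47.1 against 45.8 CPM in AD, log2 differences of -0.30 and 0.04. Both counts were below the share of all genes, so no direction is read for the fatty acid genes as a group. Scd1 had opposite signs in the 2 libraries (log2 0.92 and -1.20) on 14 and 42 UMIs in cluster 6. The median over the 27 genes was 0.00 in WT and 0.04 in AD, against -0.47 and -0.41 over all genes.

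**Figure D3:**
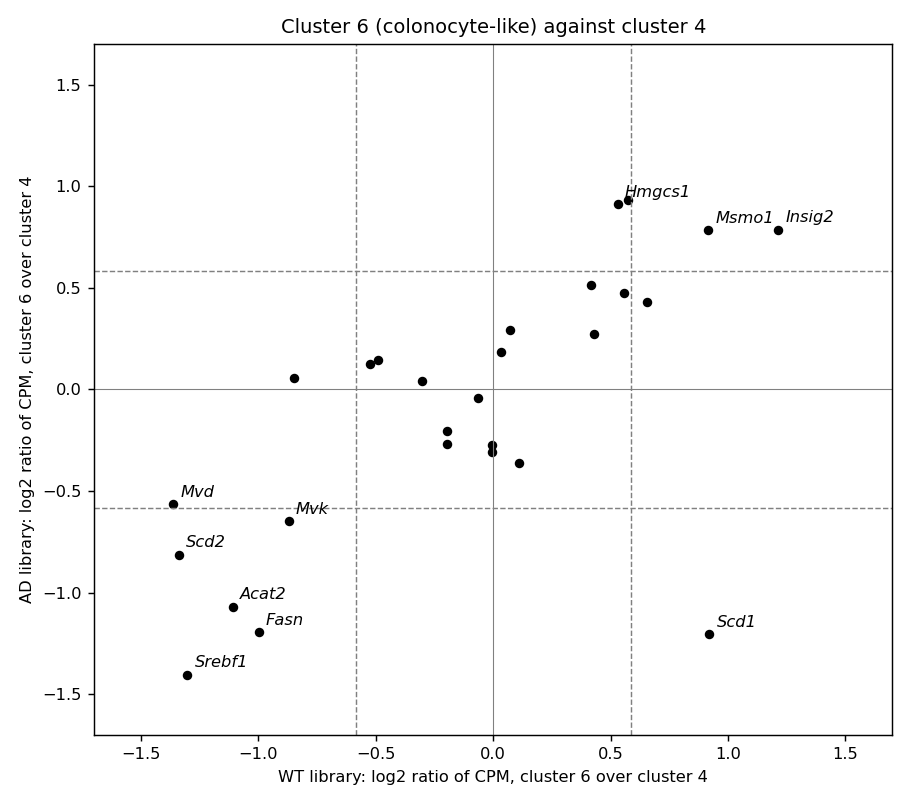
Each point is 1 of 27 genes: its log2 ratio of CPM, cluster 6 (colonocyte-like) over cluster 4, in the WT library (horizontal) and the AD library (vertical), with dashed lines at 1.5-fold. Msmo1 and Insig2 lie beyond the lines at upper right, Acat2, Mvk, Srebf1, Fasn and Scd2 at lower left, and Scd1 has opposite signs.

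Cluster 7 lay close to cluster 4: no gene of 27 was 1.5-fold higher in both libraries (background 4.91%) and 1, Acat2, was lower (background 17.7%). Goblet-like cells, set against all other epithelial-like cells, had higher Fdps and Insig1 in both libraries (2 of 27, background 10.6%) and lower Dhcr7 (1 of 27, background 17.2%). Fdps, farnesyl diphosphate synthase, stood at 179 and 141 CPM in goblet-like cells of WT and AD and at 94.0 and 75.8 CPM in colonocyte-like cells. Insig1 was at 150 against 52.9 CPM in WT and 142 against 74.9 CPM in AD. Dhcr7 differed by -1.08 and -0.84 on the log2 scale. Enteroendocrine-like cells were lower for 9 of 27 genes in both libraries (Hmgcs1, Mvd, Fdps, Msmo1, Nsdhl, Ebp, Stard4, Scd1 and Scd2; background 12.4%) and higher for none (background 29.1%). Scd2 there was at 144 and 193 CPM, a log2 difference of -1.91 and -2.07 from the other epithelial-like cells. The enteroendocrine-like class held 59 WT and 63 AD cells. Several of its 9 calls rested on few UMIs there: 1 and 0 in WT and AD for Scd1, 7 and 4 for Mvd, and 11 and 8 for Nsdhl.

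Few of these genes were at least 1.5-fold higher in AD epithelium, and of those calls only that of Hmgcs1 held under the alternatives at that limit. None was lower by the same measure. Hmgcs1, Scd1 and Scd2 were at least 1.5-fold higher over all epithelial-like cells (3 of 27 genes), where 6.29% of 11930 genes were, and 0 were at least 1.5-fold lower, where 11.1% of genes were. Hmgcs1 went from 121 to 209 CPM, a ratio of 1.73 (95% interval 1.61 to 1.85). Scd2 went from 517 to 796 CPM, a ratio of 1.54 (1.49 to 1.59). Scd1 went from 12.3 to 19.1 CPM, a ratio of 1.55 (1.24 to 1.95), on 105 and 344 UMIs, of which the 5 richest cells held 24.8% in WT. The Scd1 call was lost with each cell weighted equally (log2 ratio 0.31) and the Scd2 call at a mitochondrial limit of 10% (0.52), while Hmgcs1 kept its call under all alternatives run on it at the 1.5-fold limit. Fdft1 at 1.43 (1.32 to 1.55), Msmo1 at 1.36 (1.27 to 1.46), Cyp51 at 1.32 (1.21 to 1.44) and Insig1 at 1.30 (1.19 to 1.42) were next, within the 1.5-fold limit. They were followed by Sc5d at 1.28 (1.14 to 1.45), Hsd17b7 at 1.28 (1.09 to 1.51), Tm7sf2 at 1.26 (0.982 to 1.63) and Sqle at 1.24 (1.15 to 1.34). Under the alternatives the log2 ratio ran from 0.28 to 0.996 for Fdft1 and from 0.04 to 0.86 for Msmo1. It ran from 0.17 to 0.89 for Cyp51, from 0.02 to 0.77 for Insig1 and from 0.28 to 0.73 for Sqle.

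The ratios differed from gene to gene. Mvk at 0.765 (0.651 to 0.900) and Fdps at 0.899 (0.831 to 0.974) were the 2 genes whose interval lay below 1, and 15 of 27 had an interval above 1, against 25.3% and 20.4% of all genes. Intervals narrow as UMIs rise, and all genes were not matched to the 27 for UMI number, so these shares are not directly comparable. Under the alternatives the log2 ratio of Mvk ran from -0.55 to -0.18. That of Fdps ran from -0.56 to 0.18, so its direction depended on the processing. Acat2, Nsdhl, Dhcr7 and Acaca had ratios between 0.996 and 1.01. By role, the median log2 ratio was 0.00 over the 7 condensation and mevalonate genes, 0.41 over the 2 of squalene formation, 0.34 over the 8 from lanosterol to cholesterol, 0.40 over the 4 of fatty acid synthesis and desaturation, and 0.17 over the 5 regulators, with Stard4 at 0.22. The roles overlapped: the first alone ran from -0.39 for Mvk to 0.79 for Hmgcs1. Over the 27 genes it was 0.21, with 21 above 0, against -0.04 and 45.4% above 0 over all genes. These intervals leave out differences between animals, which 1 library per genotype cannot show.

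**Figure D4:**
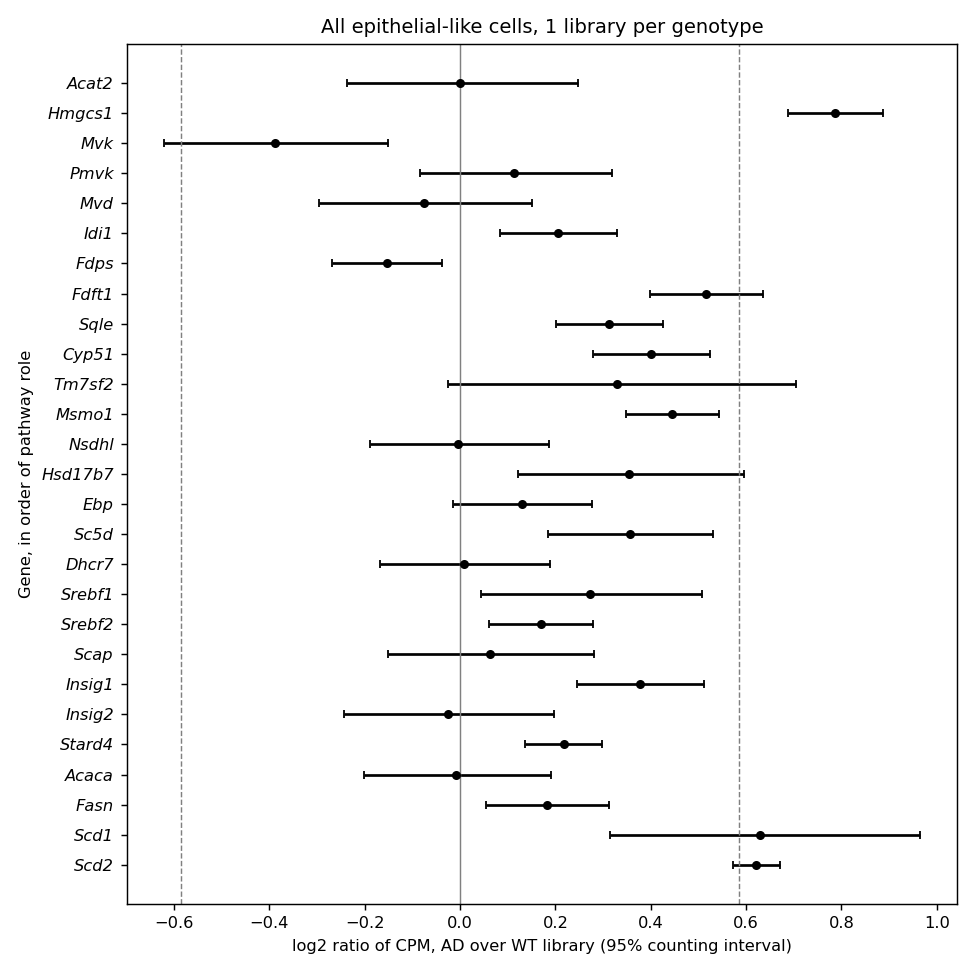
log2 ratio of CPM, AD over WT library, over all epithelial-like cells for the 27 genes with at least 50 UMIs, in order of pathway role; bars are 95% intervals for counting error and dashed lines mark 1.5-fold. Hmgcs1, Scd1 and Scd2 pass the right-hand line, and Mvk and Fdps have intervals below 0.

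Other measures moved with this comparison. Genes of dividing cells were lower in AD epithelium, 17 of 18 by at least 1.5-fold, with summed levels of 1550 CPM in WT and 676 CPM in AD. The epithelial mixture differed as well: goblet markers summed to 18654 and 28537 CPM in WT and AD, tuft markers to 69.0 and 10.2 CPM, enteroendocrine markers to 2738 and 1713 CPM, and crypt markers to 885 and 594 CPM. Markers of plasma cells, summed over 10 genes, stood at 327 and 3153 CPM in epithelial-like cells, with 1 and 0 of them at 0. Of 18 genes induced by dissociation, 1 was higher and 2 were lower (backgrounds 6.29% and 11.1%). Their median log2 ratio was 0.24, with 12 of the 18 above 0, against a median of -0.04 over all genes. The part of all these measures in the result was not tested. Dividing genes were also lower in AD within goblet-like cells, at 1464 CPM in WT and 718 CPM in AD. Within all colonocyte-like cells they summed to 940 and 326 CPM. Within cluster 6, a part of that class, they summed to 249 CPM in WT and 267 CPM in AD. Plasma markers in cluster 6 stood at 265 and 2483 CPM and goblet markers at 240 and 671 CPM. There Hmgcs1 went from 153 to 295 CPM, a log2 ratio of 0.94 (0.72 to 1.19), and Scd2 from 303 to 695 CPM, 1.20 (1.04 to 1.37). Cluster 6 held 67 WT and 298 AD cells, and its 5 richest WT cells carried 27.0% of the Hmgcs1 UMIs and 32.6% of the Scd2 UMIs.

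Cell by cell, the share of epithelial-like cells with an Hmgcs1 UMI after thinning to 1000 UMIs was 40 of 490 in WT (8.16%, 5.90 to 11.0) and 250 of 1401 in AD (17.8%, 15.9 to 20.0). Over 20 repeats of the thinning the counts ran from 29 to 55 and from 214 to 256, and the highest WT share lay below the lowest AD share. Without thinning the shares were 49.3% and 63.9%. In lymphocyte-like cells the thinned share was 1 of 222 in WT and 6 of 401 in AD.

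The higher level of Hmgcs1 was seen in 5 of 6 epithelial classes and clusters, taking goblet-like and enteroendocrine-like cells with clusters 4, 6, 7 and 9. Its log2 ratio ran from 0.56 in cluster 4 to 0.94 in cluster 6, with every interval above 0, and was -0.01 (-0.46 to 0.41) in cluster 9. Scd2 was above 0 in all 6, from 0.21 in goblet-like cells to 1.20 in cluster 6. Fdft1 and Fasn were also above 0 in all 6, with intervals above 0 in 5 and in 1. Insig1 ran from -0.26 in cluster 9 to 1.12 in cluster 4. Fdps was above 0 in 1 of 6 and its interval lay below 0 in 3. Markers also differed between the libraries inside single clusters. In cluster 4, colonocyte markers summed to 2922 CPM in WT and 5194 CPM in AD, and crypt markers to 1646 and 926 CPM. In cluster 7 crypt markers summed to 575 and 256 CPM. In cluster 6 colonocyte markers were lower in AD, at 29475 and 25780 CPM. The part of these differences in the ratios was not tested.

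**Figure D5:**
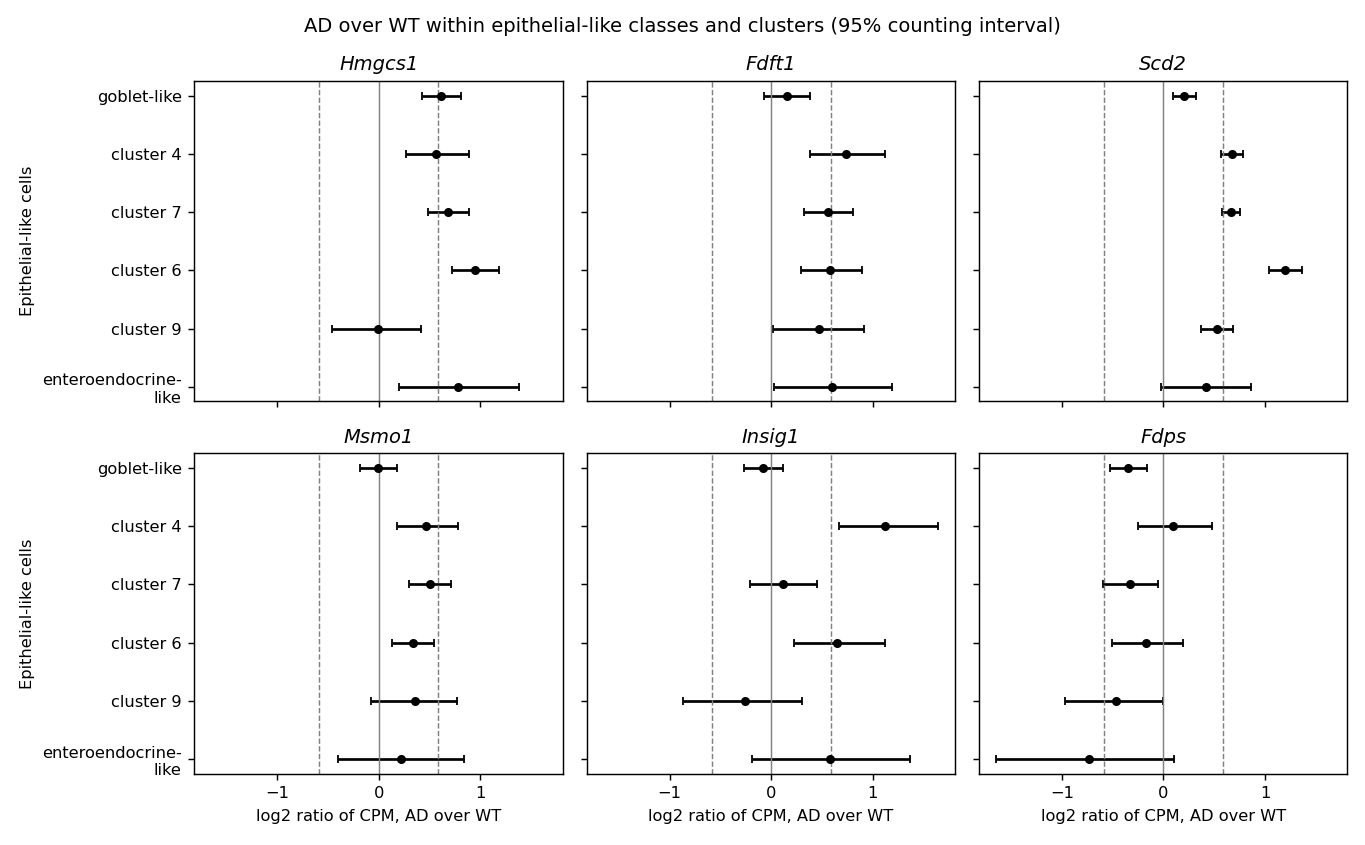
log2 ratio of CPM, AD over WT library, for 6 genes in each of 6 epithelial-like classes and clusters; bars are 95% intervals for counting error and dashed lines mark 1.5-fold. Scd2 and Fdft1 lie to the right of 0 in every class, Hmgcs1 in all except cluster 9, and Fdps lies at or left of 0 in all except cluster 4.

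The counts within classes were as follows. In colonocyte-like cells 5 of 27 genes were at least 1.5-fold higher in AD (Cyp51, Fdft1, Hmgcs1, Scd2 and Tm7sf2; background 7.29%) and 0 lower (background 10.9%). The higher genes numbered 11 at a mitochondrial limit of 50% and 21 with no limit, or 13 with no limit and totals taken without mitochondrial, immunoglobulin and haemoglobin UMIs. The colonocyte-like class held 67 WT and 298 AD cells of cluster 6, and 119 WT and 174 AD cells of cluster 7. Its mixture therefore differed between the libraries. Cluster 6 alone had 5 higher (background 10.6%) and 0 lower (background 5.83%), cluster 7 had 4 of 26 higher (background 8.39%) and 0 lower (background 9.65%), and cluster 4 had 4 of 27 higher (background 12.6%) and 0 lower (background 13.6%). Cluster 9 had 0 of 23 higher (background 9.58%) and 3 lower, Acat2, Mvk and Pmvk (background 11.1%). Goblet-like cells had 1 higher, Hmgcs1 (background 6.9%), and 1 lower, Mvk (background 8.59%); with totals taken without mitochondrial, immunoglobulin and haemoglobin UMIs 0 were higher. Enteroendocrine-like cells had 4 of 12 higher (Fdft1, Hmgcs1, Idi1 and Sqle; background 12.5%) and 1 lower, Fdps (background 9.64%), which was lost without the 5 richest cells.

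Outside the epithelium the genes were again counted class by class. Fibroblast-like cells had 4 of 23 genes higher in AD (Cyp51, Hmgcs1, Msmo1 and Stard4; background 8.65%) and 0 lower (background 6.69%). Msmo1 there went from 16.5 to 40.2 CPM and Hmgcs1 from 32.1 to 49.5 CPM, the latter on 33 WT UMIs. Markers of other cell types differed in the same class: epithelial markers summed to 660 and 1219 CPM in WT and AD, goblet markers to 202 and 1245 CPM, and plasma markers to 360 and 9456 CPM. Of the 4 genes, Hmgcs1, Msmo1 and Stard4 were among those higher in epithelium, and the part of these markers in the result was not tested. With each cell thinned to 1000 UMIs 1 gene was higher, and with at least 200 UMIs required per gene 0 were. B-like cells had 2 of 16 higher (Hmgcs1 and Sc5d; background 11.5%) and 2 lower (Fdps and Insig1; background 6.78%), with Scd1 at a ratio of 1.07 (0.929 to 1.22); after thinning 0 were higher and 0 lower. Plasma-like cells had 6 of 22 higher (background 17.7%) and 3 lower (background 14%), on 52 WT cells; requiring 200 UMIs left 2 and 0. Lymphocyte-like cells had 0 of 9 in either direction (backgrounds 12.6% and 7.59%), but 6 higher and 2 lower when 10 UMIs per gene were enough. Endothelial-like and macrophage and monocyte-like cells had 1 and 3 genes with enough UMIs and are not summarised.

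Neighbouring pathways were read from lists of related genes in the same epithelial comparison, where 6.29% of all genes were higher and 11.1% lower. With lists this short, counts of 1 or 2 genes are given as values and no list is read as changed. Of 7 genes that supply acetyl units, Acsl3, an acyl-CoA synthetase, was 1.5-fold higher in AD (168.6 to 274.3 CPM) and Acsl5 lower, on 29 and 40 UMIs. Of 14 genes for elongation, desaturation and glyceride assembly, 0 were higher and 2 lower: Fads1, the delta-5 desaturase, had 119 and 72 UMIs in WT and AD, a log2 ratio of -1.80, and Mgll, monoglyceride lipase, 144 and 115 UMIs, a log2 ratio of -1.40. Both stood higher in stroma, at 100.5 and 70.2 CPM for Fads1. None of 8 isoprenoid branch genes passed in either direction and 1 of 8 lay above 0 (median log2 -0.14). Of 16 genes of sterol uptake, storage and traffic, Npc2 (190.6 to 287.0 CPM) and Lipa (12.2 to 20.1 CPM), both of lysosomal cholesterol release, were higher and 0 were lower. No gene of SREBP processing (8), of the liver X receptors and their targets (8) or of oxysterol synthesis (2) passed in either direction.

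By cell class, 3 of the 7 acetyl supply genes (Acss2, Acsl3 and Cs) were at least 2-fold higher in epithelium than in both other groups in both libraries (background 9.61% of all genes, and 10% lower), Acss2 at 63.3 and 86.0 CPM against 11.1 to 17.8 CPM elsewhere. Of the 14 elongation and assembly genes 1 was, Elovl7, and of 8 isoprenoid and 8 SREBP processing genes 0 were. Abcg1, a sterol exporter, was lower in epithelium, at 6.81 and 5.06 CPM, and reached 130 and 147 CPM in B-like cells. Ch25h, which makes 25-hydroxycholesterol, had 1 and 3 UMIs in epithelium and 54.0 and 23.1 CPM in stroma.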

How the data were processed

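Per the labels, colon was broken up with trypsin and DNase, red cells were removed, and 10x libraries of transcript 3' ends were sequenced, 1 per genotype. The submitters' processing notes list Seurat 3.0.2, STAR and Cell Ranger 3.0.1, and the build mm10. The values are whole UMI counts for each gene and barcode, deposited by the authors without normalization. Of 33083 listed identifiers, 31350 were in the mm10 gene name table, all 28 genes included; the other 1733 leave the annotation build unsettled, so no gene positions are given beyond the RefSeq promoter windows.

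Barcodes needed 500 UMIs, 200 genes and no more than 25% of UMIs from mitochondrial genes (scanpy 1.11.5). Scrublet marked 4 doublets per library, too few for the caller to have worked, so doublets may remain. Cells were clustered jointly without integration (2000 variable genes, 30 components, 15 neighbours, Leiden resolution 1), with the 28 genes and the related pathway lists kept out of the variable genes. Clusters were named from marker lists; the naming limits follow earlier work on these data. Crypt and colonocyte names also needed 1 own marker among a cluster's 10 leading genes, a limit set after cluster 9 had first taken the crypt name. Igha, Jchain, Iglc2, Xbp1 and Mzb1 were left out of the immune limit for epithelial clusters, and the other plasma markers stayed in it.

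For each library, the UMIs of a class were added up and divided by their total (CPM), with exact Poisson 95% intervals. Ratios have exact conditional intervals; log2 ratios add 0.5 to each count. A gene needed 50 UMIs over both libraries in a class, and a class 50 cells in each library. Differences count from 1.5-fold between libraries or classes and from 2-fold for epithelium against both other groups. A count of 0 of n cells is given with 3 of n as its upper limit. Intervals and limits cover counting error only, and no test between genotypes was possible. Named genes are the 28, up to 4 per related list with the largest difference past the fold used, and paralogs. The 28 genes and all lists were chosen with earlier results of these data known. Of 308 list and marker genes, 3 had no match. The list of other sterol steps is not reported here. The motifs were chosen with results known, and all 4 searched are given. Alternatives are described in the closing section, 2 of them added after seeing the data. The statistics were tested on simulated counts.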

Additional observations from a re-analysis of the deposited data

Results flagged for a closer look

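Insig1, which retains the SREBP escort protein in the endoplasmic reticulum, differed between the libraries in opposite directions in 2 classes. Its log2 ratio, AD over WT, was 0.69 (0.41 to 0.98) in epithelial-like cells without a subclass and -1.04 (-1.52 to -0.56) in B-like cells. The difference between the classes was not tested. In the first class it rested on cluster 4, where Insig1 stood at 41.5 CPM in WT and 91.3 CPM in AD on 40 and 371 UMIs, while cluster 9 of the same class was at 59.2 and 49.1 CPM. In B-like cells it stood at 144 CPM in WT and 70.2 CPM in AD, on 82 and 71 UMIs, of which the 5 richest cells held 23.2% and 15.5%. Crypt markers in cluster 4 summed to 1646 CPM in WT and 926 CPM in AD, and their part in the Insig1 ratio was not tested.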

How the results depend on the processing

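No paired analysis was possible because each genotype had 1 library. Of 699 recomputed values, 570 stayed within their interval or within 1.5 times the count and 129 moved. A change of sign was looked for only in log2 ratios past the 1.5-fold limit, and 0 of those showed one. Below that limit signs did change. The log2 ratio of Fdps in epithelium ran from -0.56 to 0.18, and the median in B-like cells from -0.31 to 0.16. The median log2 ratio of the genes in AD over WT epithelium was 0.21, and it was 0.44 at a limit of 50% and 0.57 with none; the genes at least 1.5-fold higher numbered 8 and 14 instead of 3, and those higher in epithelium than in both other groups 8 and 5 instead of 14. Colonocyte-like cells had medians of 0.54 and 0.90 at those limits instead of 0.25, with 11 and 21 genes higher instead of 5. Those totals hold mitochondrial UMIs, which were 34.2% of WT and 20.3% of AD epithelial UMIs with no limit. With totals taken without mitochondrial, immunoglobulin and haemoglobin UMIs, an alternative added after seeing the data, the higher genes numbered 4 at 50% and 5 with no limit, while the median over all genes lay at -0.10 and -0.11, and colonocyte-like cells had medians of 0.39 and 0.53. Hmgcs1 had a log2 ratio between 0.76 and 1.27 under all alternatives that gave it one, while Scd1 was 0.31 with cells weighted equally. At a 2-fold limit 0 genes were higher in AD epithelium, and at a 3-fold limit 3 were higher in epithelium. With each cell thinned to 1000 UMIs, 7 were higher in epithelium, 6 of the 28 genes instead of 18 were highest in the same class in both libraries, and medians were 0.34 in goblet-like cells, 0.53 in epithelial-like cells without a subclass and 0.42 in fibroblast-like cells, instead of 0.09, 0.32 and 0.20; the cause was not tested. With each cell weighted equally, 9 were higher in epithelium. The 59 enteroendocrine-like and 52 plasma-like WT cells limit what those classes can show.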
